A study of Mus musculus with 6 samples.

Results

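The genes described here encode 10 proteins that bind methylated lysine 4 of histone H3 (H3K4): Bptf, Ing1, Ing2, Ing3, Ing4, Ing5, Taf3, Phf8, Chd1 and Spin1. They were chosen by name as readers of this mark, by a rule that uses no expression value but with earlier results of these data known, and all 10 are among the 38926 gene symbols of the deposited counts. RNA was sequenced from hematopoietic stem cells (HSCs) purified by flow cytometry from the fetal liver of mouse embryos at E14.5. The 3 controls were Vav-Cre; Dpy30F/+ and the 3 knockouts were Vav-Cre; Dpy30F/-, with 1 sample of each genotype from each of 3 litters. The comparison asks how the readers' transcripts change when Dpy30, a core subunit of the enzymes that write the mark, is lost. Vav-Cre is a Cre recombinase driven by Vav regulatory sequences, active in blood-forming cells. Every sample carried it together with 1 floxed Dpy30 allele (F), so the controls are heterozygous wherever the floxed allele was deleted. Age, tissue and sorting were the same for both genotypes, and the labels do not say whether a sample is 1 embryo or a pool.

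Methylation of H3K4 marks active chromatin, with the trimethylated form concentrated at the promoters of active genes. Complexes of the SET1/MLL family write it, and reader proteins recognise it through a PHD finger (Bptf, Ing1 to Ing5, Taf3, Phf8), paired chromodomains (Chd1) or Tudor-like repeats (Spin1). Each reader brings another activity to marked chromatin: nucleosome remodeling, histone acetylation or deacetylation, removal of other histone marks, or assembly of the transcription machinery. The readers do not write the mark, so their transcripts are a measure apart from the level of the mark itself, which was not measured here.

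The libraries held 31897737 to 43394700 counts assigned to genes, of which 45.2% to 61.7% came from the 2 mitochondrial ribosomal RNAs. Levels are given as CPM, the counts of a gene for every 1000000 in a library after TMM scaling, which sets the libraries to a common level over most genes. The sorted cells had HSC transcripts in every library, and 13 of 13 HSC markers could be tested. Their summed level was 899 to 1003 CPM in controls against 603 to 1279 CPM in knockouts. Knockout 3 was lowest in this sum. Hlf, a stem cell transcription factor gene, was at 27.2 CPM there against 146 to 230 CPM in the other 5 libraries, and Mecom at 11.6 CPM against 70.2 to 147 CPM. The markers did not all go this way. For 1 of the 13, all knockouts, knockout 3 included, lay above all controls, beside 6.39% of all tested genes. Knockout 2 stood apart in the 6 endothelial markers, which summed to 143 CPM there and to 1097.5 to 1727.1 CPM in the other 5 libraries. The 12 macrophage markers summed to 198 to 254 CPM in controls against 349 to 1455 CPM in knockouts, with knockout 3 highest and none of the 12 at 0. DESeq2 called 4 of the 12 higher (Csf1r, C1qb, Lyz2 and Cd68), where it called 1.96% of all genes, and edgeR called 0. Run on the genes of the edgeR test alone, DESeq2 still called 3 of them, all but Cd68, where it called 1.03% of all genes. The median log2 fold change of the 12 was 1.95, and 1.27 without knockout 3. The 10 erythroid markers summed to 1096 to 2110 CPM in controls against 864 to 2595 CPM in knockouts, with knockout 3 highest, and DESeq2 called Tfrc, the transferrin receptor gene, lower. The median log2 fold change of the 10 was -0.24, with -1.09 without knockout 3 and 0.070 without knockout 1. The 6 megakaryocyte markers summed to 80.9 to 142 CPM in controls against 53.8 to 119 CPM in knockouts. Lymphoid, mast cell and hepatocyte markers summed to at most 23.3 CPM in any library, and Cd3e and Cd3d, which define T cells, were at 0 throughout. At these low levels DESeq2 called the lymphoid marker Nkg7 higher (adjusted p = 0.000995), and edgeR called 0 of the list. The DESeq2 call held on the genes of the edgeR test alone (adjusted p = 0.00111). The mast cell markers summed to 0.0691 to 5.48 CPM in controls against 6.42 to 17.9 CPM in knockouts. Only 2 of these 6 markers could be tested, and Fcer1a, Cma1 and Tpsb2 were at 0 in every library. For 1 of the 2 all knockouts lay above all controls, beside 6.39% of all tested genes. Their median log2 fold change was 1.79, and -1.93 without knockout 2. Neither edgeR nor DESeq2 called any mast cell marker. The lymphoid and hepatocyte sums overlapped between the genotypes. In such bulk samples fewer cells of a type and less RNA per cell cannot be told apart. The part of these differences in the results below was not tested, and values without knockout 2 or 3 are given where they matter.

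Dpy30 (chromosome 17, 74299474 to 74323944, minus strand, GRCm38) was examined first, as a check of the labels. It stood at 24.6, 24.2 and 31.6 CPM in the controls (litters 1 to 3) against 7.93, 5.95 and 13.7 CPM in the knockouts. The groups did not overlap, which held for 14.1% of all tested genes in either direction. The log2 fold change, knockout over control, was -1.55 (SE 0.464, edgeR quasi-likelihood test with Benjamini-Hochberg adjustment over all genes, adjusted p = 0.672), and DESeq2 called it lower (adjusted p = 0.0412). The call was lost when DESeq2 was run on the genes of the edgeR test alone (adjusted p = 0.131).

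None of the 10 readers passed an adjusted p of 0.05 between the genotypes. All 10 were among the 13646 genes kept by the filter on low counts, and 0 of them were called in edgeR's quasi-likelihood test, which called 0 genes in all (percent called 0.0) and had 888 genes at an unadjusted p under 0.05. DESeq2, the other count test, also called 0 of the 10, while it called 275 of 14053 genes with an adjusted p (1.96%). Run on the genes of the edgeR test alone, DESeq2 called 0 of the 10 and 138 of 13390 genes (1.03%). At an unadjusted p under 0.05, 1 reader was reached, Taf3, which is 10% of the list beside 6.51% of all tested genes. The median log2 fold change of the readers was 0.056, beside 0.015 over all tested genes, with 6 values above 0 and 4 below. Leaving out 1 sample at a time moved this median from -0.11 (without knockout 2) to 0.29 (without knockout 3). The estimates ran from -0.71 for Ing5 to 1.04 for Ing1, and the widest 95% interval, that of Ing3, spanned -2.34 to 1.94. Intervals of this width leave room for sizeable changes, and the test does not show that the readers were the same in both genotypes.

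**Figure D1:**
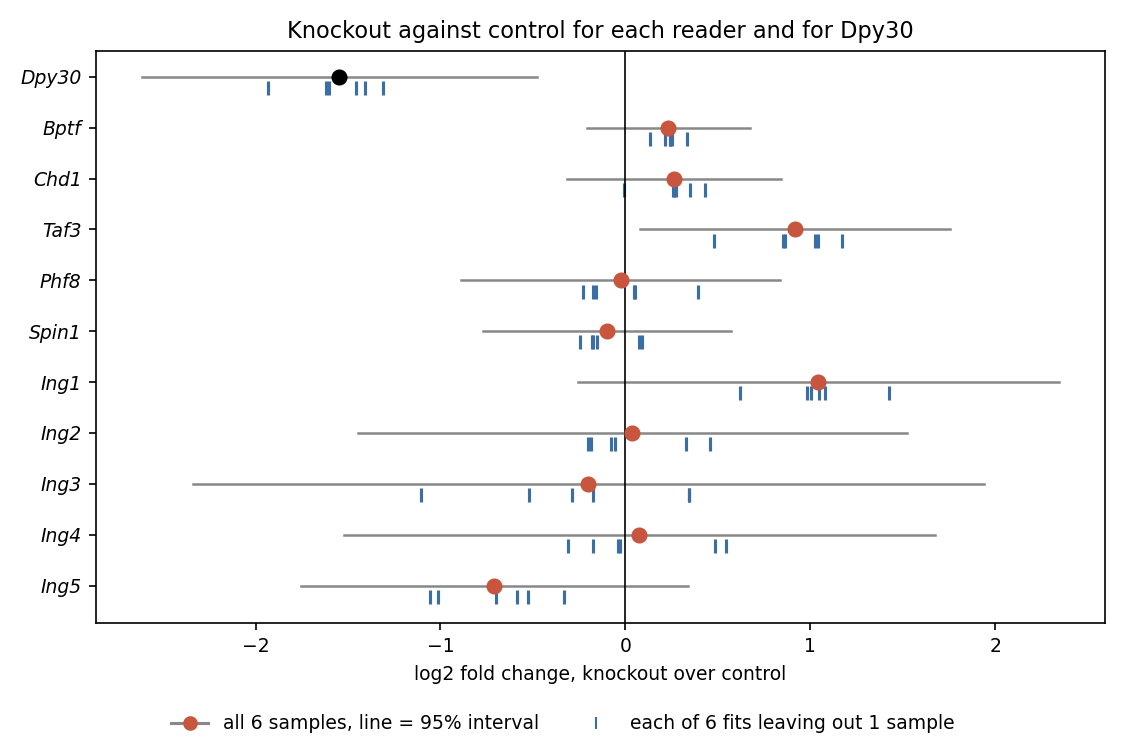
The log2 fold change (knockout over control, horizontal axis) of each reader and of Dpy30, with its 95% interval from edgeR as a line and, as ticks below, the values from the 6 fits that each left out 1 sample. Dpy30 lies at -1.55, while among the readers Taf3 (0.92) and Ing1 (1.04) lie farthest to the right and Ing5 (-0.71) farthest to the left.

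Bptf and Chd1 act in chromatin remodeling, in which nucleosomes are moved with energy from ATP. Bptf is the largest subunit of the remodeling complex NURF and its PHD finger binds trimethylated H3K4. The gene (ENSMUSG00000040481.17; chromosome 11, 107033081 to 107132127, minus strand, GRCm38) had 208, 244 and 274 CPM in controls 1 to 3. In knockouts 1 to 3 it had 276, 291 and 285 CPM. All 3 knockouts lay above all 3 controls, by a narrow margin, with the lowest knockout at 276.1 CPM and the highest control at 274.03 CPM. The knockout mean was 284 ± 7.70 CPM and the control mean 242 ± 33.2 CPM (SD, n = 3 each), a log2 fold change of 0.23 (SE 0.192, adjusted p = 0.880 in edgeR; 95% interval -0.21 to 0.67). Without control 1 it was 0.14. Bptf was the 1 reader of the 10 whose groups did not overlap, beside 14.1% of all tested genes in either direction and 6.39% higher in the knockout. The separation depended on the scaling: under upper-quartile scaling control 3 (288.3 CPM) was above knockout 3 (252.8 CPM) and 0 readers were separated, with 15.0% of all genes. Under the size factors of DESeq2 both Bptf and Taf3 were separated, with 14.1% of all genes. Bptf was higher in the knockout in each litter, by log2 differences of 0.41, 0.26 and 0.057 in litters 1 to 3.

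Chd1 is a remodeler of its own, which spaces nucleosomes on transcribed genes and binds the mark through its chromodomains. It lies on chromosome 17 (15704967 to 15772610, plus strand, GRCm38). Its controls were nearly equal, at 163, 159.6 and 165 CPM, or 163 ± 2.92 CPM (SD, n = 3). Knockouts 1 to 3 had 172, 262 and 151 CPM, or 195 ± 59.2 CPM (SD, n = 3). Knockout 2 alone was far from the rest, and knockout 3 was below all controls, so the groups overlapped. The log2 fold change was 0.26 (SE 0.250, adjusted p = 0.901 in edgeR), and it was -0.0098 without knockout 2 and 0.43 without knockout 3.

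Taf3 is a subunit of TFIID, the general transcription factor that assembles at core promoters, and its PHD finger anchors TFIID to trimethylated H3K4. It lies on chromosome 2 (9914552 to 10048596, minus strand, GRCm38). Controls 1 to 3 had 41.7, 41.4 and 52.9 CPM. Knockouts 1 to 3 had 72.3, 52.8 and 132 CPM. Knockouts 1 and 3 were above every control, while knockout 2, at 52.80 CPM, fell just under control 3, at 52.87 CPM. That order turned with the scaling: with the size factors of DESeq2 knockout 2 (53.1 CPM) was above control 3 (52.3 CPM), and all 3 knockouts were above all 3 controls. Means were 45.3 ± 6.53 CPM in controls against 85.7 ± 41.2 CPM in knockouts (SD, n = 3 each), and the log2 fold change was 0.92 (SE 0.364, 95% interval 0.079 to 1.76). Taf3 had the smallest p of the readers before adjustment, and it did not pass the adjustment over all genes (adjusted p = 0.753 in edgeR; adjusted p = 0.302 in DESeq2). It was higher in the knockout in each litter, by log2 differences of 0.79, 0.35 and 1.32, a pattern of 1 direction in all 3 litters that 3 of the 10 readers and 28.2% of all tested genes showed. The size rested in part on knockout 3, the library with the lowest sum of HSC markers and the highest sum of macrophage markers. Without knockout 3 the log2 fold change was 0.48 (adjusted p = 0.733 in edgeR). Of the exon bases of Taf3, 7.65% are shared with RNAs annotated on the opposite strand, and since the strandedness of the counting is not given, such reads may be missing from its count.

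Phf8 and Spin1 gave the estimates nearest to no change outside the Ing family. Phf8 is a demethylase of repressive histone marks that docks on trimethylated H3K4, and its gene is X-linked (chromosome X, 151520672 to 151633859, plus strand, GRCm38). Its levels were 32.01, 59.6 and 27.6 CPM in the controls (litters 1 to 3) against 35.0, 34.8 and 47.4 CPM in the knockouts. Control 2 was highest, the knockouts lay within the control range, and the log2 fold change was -0.025 (SE 0.374, adjusted p = 0.994 in edgeR; 95% interval -0.89 to 0.84). Leaving out 1 sample at a time gave -0.23 (without control 3) to 0.39 (without control 2). Xist, the RNA of the inactive X chromosome, had 497, 488 and 182 CPM in the controls (litters 1 to 3) against 64.6, 126 and 163 CPM in the knockouts. All knockouts thus lay below all controls (log2 fold change -1.72), a separation that 14.1% of all tested genes showed in either direction. Transcripts of the 4 Y-linked genes examined were present in every library. The part of the sex makeup in the Phf8 values, or in any other difference between the genotypes, was not tested.

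Spin1, spindlin 1, reads trimethylated H3K4 with Tudor-like repeats and is known as a coactivator of ribosomal RNA transcription. It lies on chromosome 13 (51100880 to 51152546, plus strand, GRCm38). It had 75.3, 53.8 and 54.6 CPM in the controls (litters 1 to 3) against 61.2, 68.1 and 41.9 CPM in the knockouts. Control 1 was highest and knockout 3 lowest, and the groups overlapped. The log2 fold change was -0.10 (SE 0.291, adjusted p = 0.9752 in edgeR; 95% interval -0.77 to 0.57), and its sign turned without control 1 (0.076) and without knockout 3 (0.091).

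**Figure D2:**
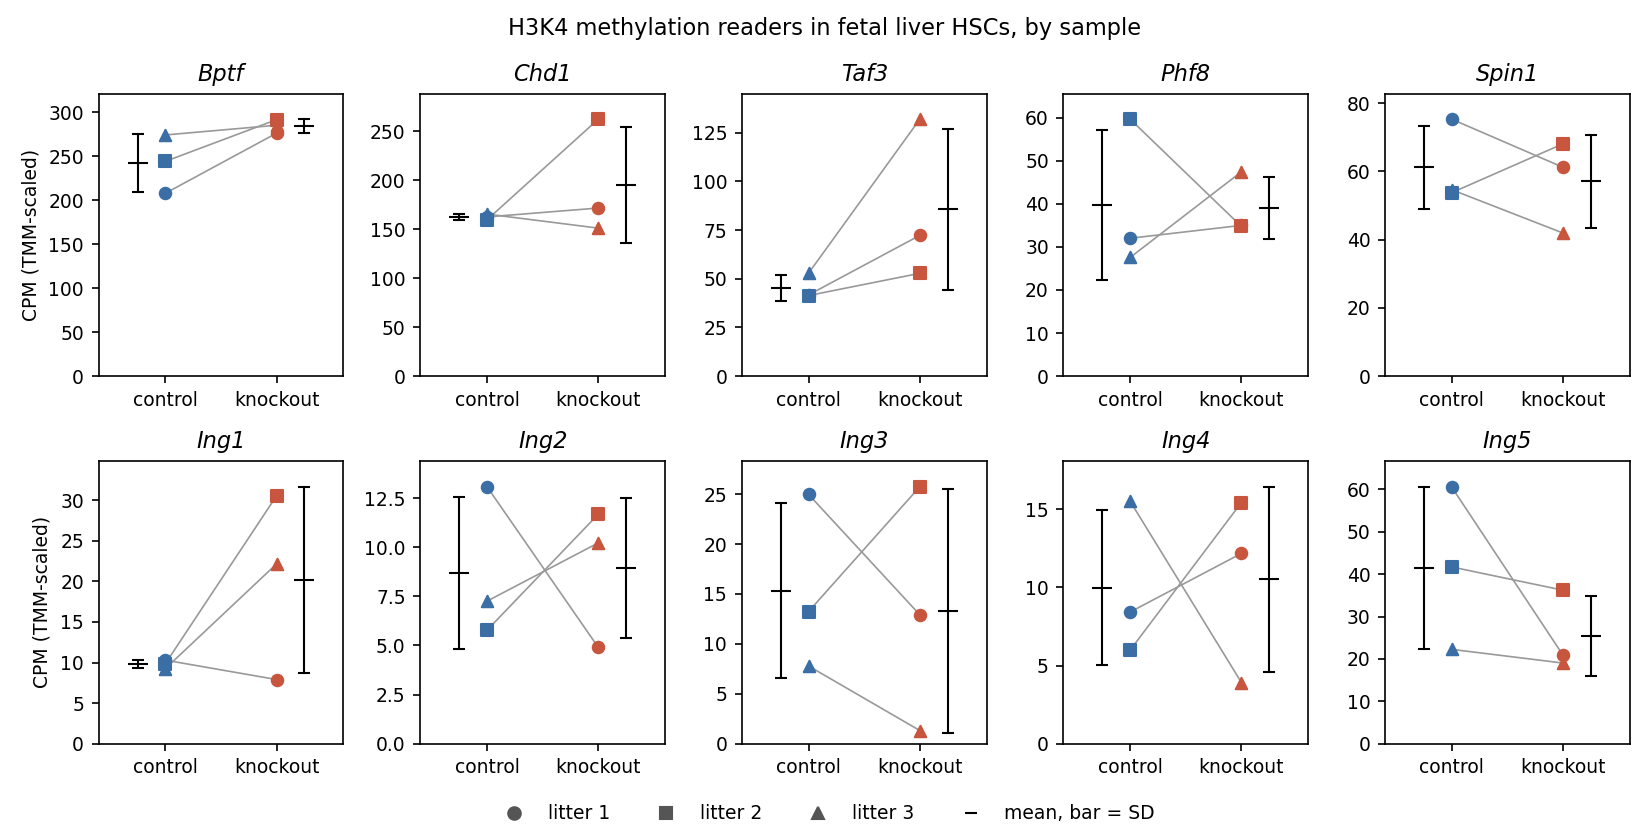
CPM (TMM-scaled, vertical axes from 0) of each of the 10 readers in the 3 controls and 3 knockouts, with lines joining samples of a litter and bars for the mean and SD of each genotype. Knockout values of Bptf lie above the controls by a narrow margin, which was lost under upper-quartile scaling. Taf3 is higher in the knockout of each litter and Ing5 lower, and the lines of most other readers cross.

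The 5 Ing genes encode small subunits of acetyltransferase and deacetylase complexes, which share a closely related PHD finger for trimethylated H3K4 at the C terminus. Ing1 and Ing2 serve the SIN3-HDAC deacetylase complex, Ing3 the NuA4/TIP60 acetyltransferase complex, Ing4 the HBO1 complex, and Ing5 both the HBO1 and MOZ/MORF complexes. None passed the threshold in either direction, and the family held both the highest and the lowest estimate among the readers.

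Ing1, founding member of the family and linked to p53 function, lies on chromosome 8 (11555571 to 11563251, plus strand, GRCm38). Its controls were tightly grouped at 10.3, 9.87 and 9.25 CPM. Knockouts 1 to 3 had 7.90, 30.6 and 22.2 CPM. Knockouts 2 and 3 were above every control and knockout 1 was below every control, so the groups overlapped and the direction differed between litters. The log2 fold change was 1.04 (SE 0.565, adjusted p = 0.797 in edgeR; adjusted p = 0.441 in DESeq2), and it was 1.43 without knockout 1 (adjusted p = 0.326 in edgeR) and 0.62 without knockout 2. Ing2, on the same chromosome (47667178 to 47675556, minus strand), ranged from 5.78 to 13.1 CPM in controls against from 4.91 to 11.7 CPM in knockouts. Its log2 fold change of 0.038 (SE 0.643, adjusted p = 0.995 in edgeR) had no stable sign, with values from -0.20 (without knockout 2) to 0.46 (without control 1).

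Ing3 (chromosome 6, 21949571 to 21976038, plus strand, GRCm38) varied most among samples. It had 723, 495 and 343 counts in the controls (litters 1 to 3) against 513, 934 and 46 counts in the knockouts, which is 24.97, 13.2 and 7.78 CPM against 12.9, 25.7 and 1.31 CPM. The highest and the lowest library were both knockouts, and they differed 19.6-fold. The log2 fold change was -0.20 (SE 0.928, adjusted p = 0.987 in edgeR), and it was 0.35 without knockout 3, 0.34 without control 1 and -1.11 without knockout 2. With litter as a term in the fit, the litters pairing the samples, it was -0.85 (adjusted p = 0.953 in edgeR). Ing4 (chromosome 6, 125039760 to 125049265, plus strand) likewise had its lowest value in knockout 3, 3.91 CPM. The other knockouts had 12.2 and 15.4 CPM and the controls 8.43, 5.99 and 15.5 CPM, so the groups overlapped (log2 fold change 0.075, SE 0.693; adjusted p = 0.994 in edgeR; without knockout 3, 0.48). Its sign turned in 4 of the 6 fits that left out 1 sample, down to -0.31 without knockout 2. Of the exon bases of Ing4, 34.9% are shared with Gm44597, annotated as a processed transcript on the same strand, so reads there may be missing from the Ing4 count.

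Ing5 (chromosome 1, 93803965 to 93822101, plus strand, GRCm38) had the lowest estimate of the readers. It had 60.5, 41.7 and 22.3 CPM in the controls (litters 1 to 3) against 20.9, 36.2 and 19.0 CPM in the knockouts. Each knockout was below the control of its litter, by 1.53 in litter 1 and by 0.20 and 0.23 in litters 2 and 3 on the log2 scale, but knockout 2 was above control 3. Means were 41.5 ± 19.1 CPM and 25.4 ± 9.43 CPM (SD, n = 3 each; log2 fold change -0.71, SE 0.455; adjusted p = 0.845 in edgeR; adjusted p = 0.660 in DESeq2). Without control 1 the log2 fold change was -0.33, and with scaling by library size only it was -0.46.

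The makeup of the Ing family is a measure within each library that does not depend on scaling. Of the summed counts per kilobase of exon over the 5 genes, Ing5 held 47.5%, 50.4% and 32.8% in the controls (litters 1 to 3) against 33.1%, 26.6% and 26.97% in the knockouts. Ing1 held 11.2%, 16.5% and 18.9% in controls and 17.4%, 31.2% and 43.6% in knockouts. Ing5 was thus the leading member in all 3 controls and in knockout 1, and Ing1 was the leading member in knockouts 2 and 3. In plain counts, not divided by length, Ing5 also led in knockout 2, with 30.3% against 25.5% for Ing1. On average the Ing5 share was 43.5% ± 9.44 in controls against 28.9% ± 3.65 in knockouts, and the Ing1 share 15.5% ± 3.94 and 30.7% ± 13.1 (SD, n = 3 each). The difference in the Ing1 share, 15.2 percentage points, was 8.72 without knockout 3 and 21.8 without knockout 1. These shares are given as a description, with no test, and the groups overlapped for both genes, at knockout 1 (Ing5 33.1%, Ing1 17.4%) and control 3 (32.8% and 18.9%). Ing2, Ing3 and Ing4 moved by -1.90 to 1.53 percentage points on average, which is less than their SD. The summed level of the 5 genes was 19.6 ± 6.55 CPM per kilobase in controls against 19.0 ± 8.48 in knockouts (SD, n = 3 each).

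**Figure D3:**
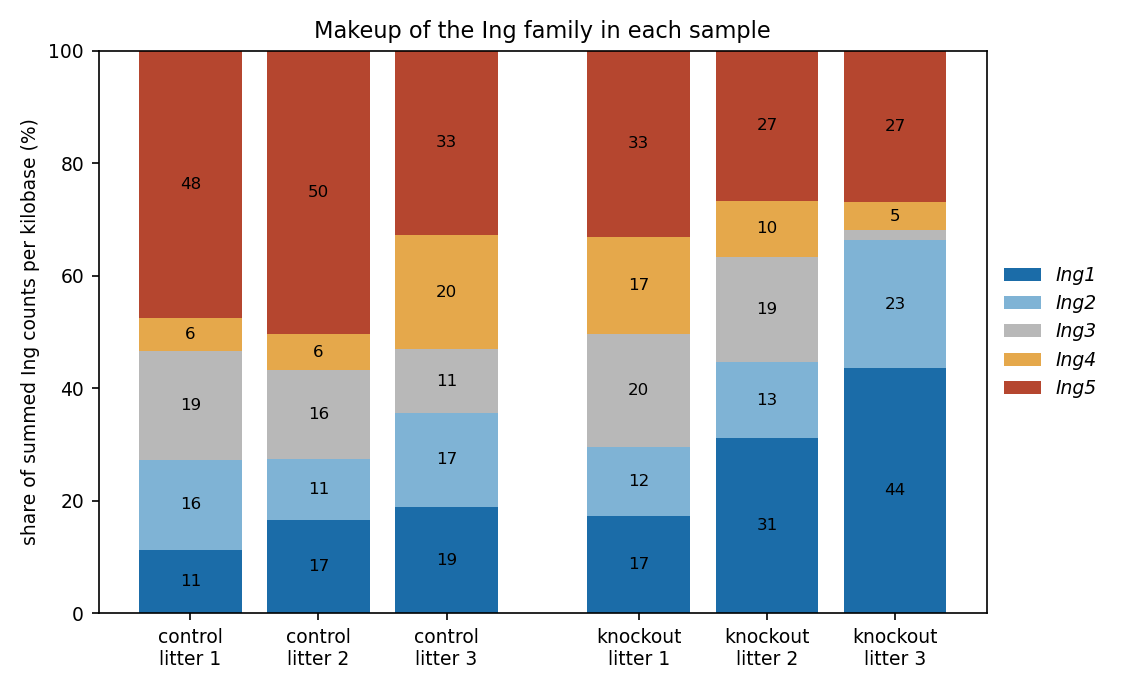
Share of each Ing gene (percent, vertical axis) in the summed counts per kilobase of the 5 Ing genes, as 1 stacked bar for each sample. The Ing5 part spans 32.8% to 50.4% in controls and 26.6% to 33.1% in knockouts, and the Ing1 part reaches 43.6% in knockout 3.

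Per length, the readers ranged from well above to below the typical gene. Dividing CPM by kilobases of merged exon, the mean over all 6 samples was highest for Chd1 (20.5) and Bptf (18.7), followed by Spin1 (13.1), Taf3 (10.3), Ing5 (7.07), Ing1 (4.398), Phf8 (4.23), Ing3 (2.99), Ing2 (2.92) and Ing4 (1.93). The median of 12871 tested genes with a length was 2.88 on the same scale. Chd1 and Bptf were above 92% of those genes, while Ing4 was above 39.2%. The Ing4 level may be too low, since the bases it shares with Gm44597 count toward its length. Each of the 9 neighbouring pairs in this order overlapped in their ranges over the 6 samples, so the order of neighbours is not resolved. Some genes farther apart were separated: the lowest value of Chd1 (17.3) was above the highest of Spin1 (16.7), Ing5 (12.8) and every gene after Taf3. Others were not. The highest value of Taf3 (20.6) lay within the range of Chd1, and Ing1 (from 2.32) overlapped even Ing4 (up to 2.92). By genotype, Chd1 and Bptf were first and second and Ing4 last in both, whereas Ing1 was the ninth in controls and the fifth in knockouts.

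**Figure D4:**
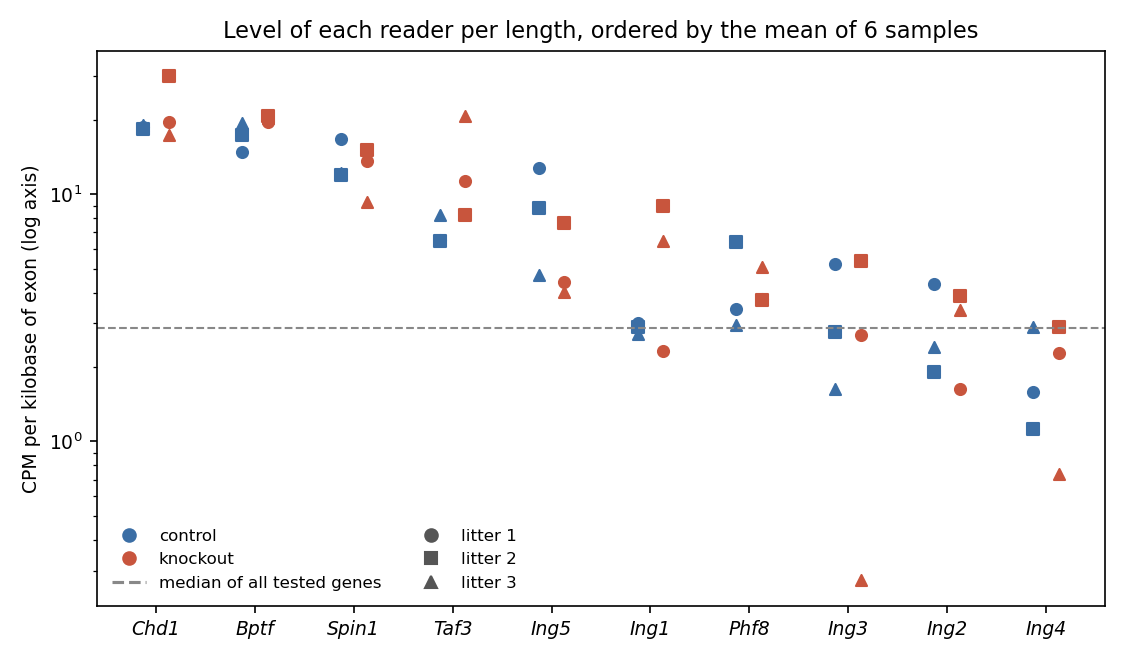
Level of each reader in CPM per kilobase of exon (log axis), by sample, ordered by the mean over 6 samples, with a dashed line at the median of all tested genes (2.88). Chd1 and Bptf lie far above that line in every library, and Ing3 in knockout 3 is the lowest point of all, at 0.274.

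The readers also differed in how reproducible they were. The biological coefficient of variation (the spread between replicates beyond counting error, as edgeR estimates it) was lowest for Bptf (0.237) and Chd1 (0.273) and highest for Ing3 (0.785), with a median of 0.404 beside 0.651 over all tested genes. Spin1 (0.308), Taf3 (0.355) and Phf8 (0.375) lay between, and the 5 Ing genes, which have the fewest counts, had the largest values. The SD of log2 CPM was larger in knockouts than in controls for 7 of the 10 readers, beside 75.2% of all tested genes. Bptf, Ing5 and Phf8 were the exceptions. For Ing1 the SD was 0.077 in controls and 1.02 in knockouts, and for Chd1 0.026 and 0.42.

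The complexes through which the readers act were examined with 9 lists, holding other proteins with an H3K4-binding domain and partner subunits. Of 101 distinct genes, 95 were tested and 0 passed an adjusted p of 0.05 in edgeR, while DESeq2 called 1, Baz2a, where it called 1.96% of all genes. DESeq2 called 0 of them on the genes of the edgeR test alone. At an unadjusted p under 0.05, 4 were higher and 3 lower in the knockout, which is 7.37% of the 95 beside 6.51% of all tested genes, and their median log2 fold change was 0.060.

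Among 15 tested genes of other readers of methylated H3K4, 9 had an estimate above 0 (median 0.14, and -0.028 without control 1), and the gene with the smallest p was Dido1, at 109 ± 31.0 CPM in controls against 152 ± 27.1 in knockouts (SD, n = 3 each; log2 fold change 0.48, adjusted p = 0.820 in edgeR; without control 1, 0.27). Among 6 tested readers of unmethylated H3K4, 3 had an estimate above 0 (median 0.23, and 0.36 without knockout 3). Baz2a, a subunit of a complex that silences ribosomal RNA genes, had 94.1, 83.2 and 81.1 CPM in the controls (litters 1 to 3) against 148, 133 and 166 CPM in the knockouts. All its knockouts were above all its controls, beside 14.1% of all tested genes separated in either direction. Baz2a was named for its p, so the separation adds no further support. Its log2 fold change was 0.79 (SE 0.207, adjusted p = 0.624 in edgeR and 0.0259 in DESeq2). The DESeq2 call was lost on the genes of the edgeR test alone (adjusted p = 0.0994) and with litter as a term (adjusted p = 0.188). Trim24, named here after its values were seen, was the other gene of this list at an unadjusted p under 0.05 (log2 fold change 1.30, adjusted p = 0.672 in edgeR; without knockout 3, 0.90).

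For the SIN3-HDAC partners of Ing1 and Ing2, 11 of 15 estimates were above 0 (median 0.23). Sin3a, the scaffold of that complex, had 100.1 ± 12.1 CPM in controls against 163 ± 42.2 in knockouts (SD, n = 3 each; log2 fold change 0.70, adjusted p = 0.729 in edgeR), and Sap18, named after its values were seen, had 25.9 ± 10.5 and 11.5 ± 1.55 CPM (log2 fold change -1.17, adjusted p = 0.749 in edgeR). The NuA4/TIP60 partners of Ing3 had 6 of 17 estimates above 0 (median -0.075, with -0.23 without knockout 1 and -0.014 without knockout 3), with the smallest p for Morf4l2 (log2 fold change -1.07, adjusted p = 0.848 in edgeR; without knockout 3, -0.57, and without knockout 2, -1.69). The HBO1 and MOZ/MORF partners of Ing4 and Ing5 had 6 of 10 above 0, and their median of 0.25 became -0.085 without knockout 3. Their smallest p was that of Brd1 (log2 fold change 0.57, adjusted p = 0.834 in edgeR).

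Of the TFIID partners of Taf3, 8 of 15 had estimates above 0, with a median of 0.25 that was lower in each of the 6 fits that left out 1 sample, from -0.34 (without knockout 2) to 0.18 (without knockout 1). The smallest p in this list belonged to Tbp, the TATA-binding subunit, with 47.4, 37.1 and 49.3 CPM in the controls (litters 1 to 3) against 31.6, 14.7 and 10.3 CPM in the knockouts. All knockouts lay below all controls, a separation that 14.1% of all tested genes showed in either direction. Tbp was named for its p, so the separation adds no further support. The log2 fold change of Tbp was -1.24 (SE 0.459, adjusted p = 0.729 in edgeR) and -0.93 without knockout 3. Tbp and Taf3 had estimates of opposite sign, and neither passed the adjustment over all genes. Estimates of both signs occurred across the TFIID list, so this contrast is a description only. The NURF partners of Bptf had estimates from -0.32 to 0.29 over 3 tested genes, with the smallest p for Rbbp7, a histone-binding subunit (adjusted p = 0.866 in edgeR). The elongation factors that work with Chd1 had 3 of 10 above 0 (median -0.15, and 0.0024 without knockout 3), with Paf1 at 36.2 ± 5.20 CPM in controls against 59.8 ± 5.10 in knockouts (SD, n = 3 each; log2 fold change 0.73, adjusted p = 0.729 in edgeR). Other CHD remodelers had 4 of 7 above 0 (median 0.11, and -0.16 without knockout 3), with the smallest p for Chd2 (log2 fold change -0.82, adjusted p = 0.729 in edgeR), the closest relative of Chd1.

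**Figure D5:**
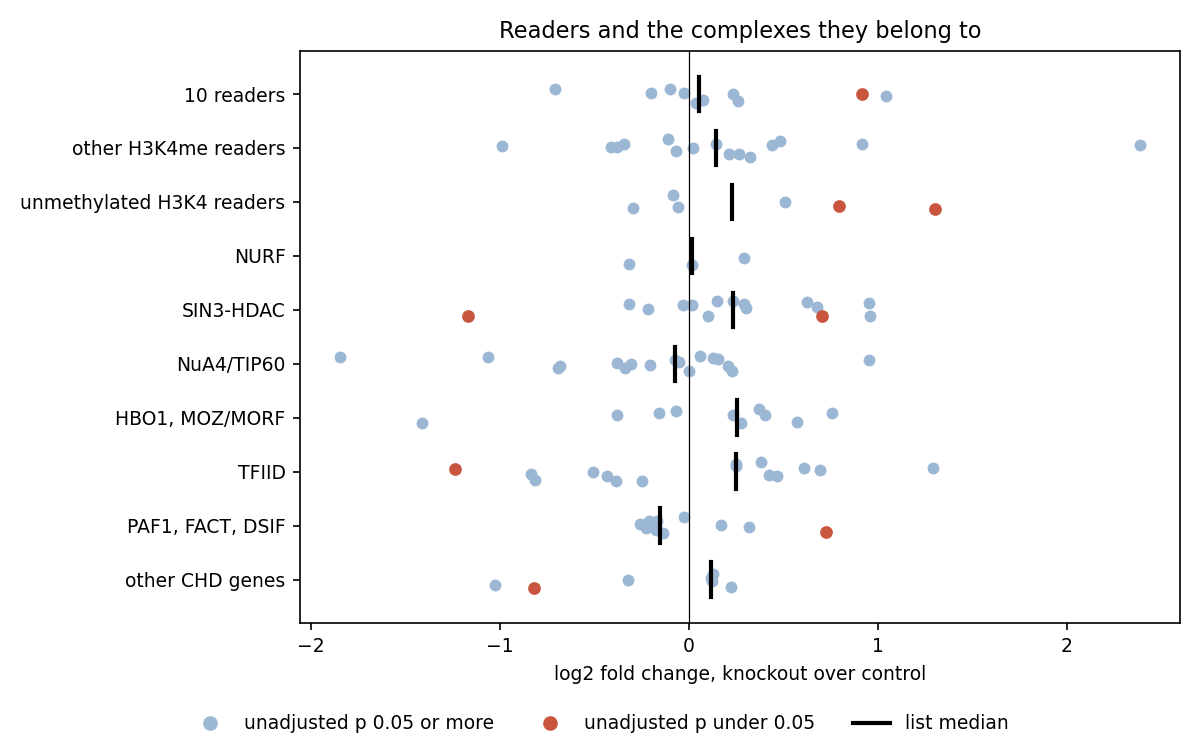
Log2 fold change (knockout over control, horizontal axis) of each tested gene in the readers and in 9 lists of related genes, with a bar at each list's median and in red the genes at an unadjusted edgeR p under 0.05. The medians lie between -0.15 and 0.25, and none of the genes shown passed an adjusted p of 0.05 in edgeR.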

How the data were processed

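RNA-seq libraries of 6 samples (3 controls, 3 knockouts) were used. The deposited files hold whole-number counts per gene symbol, 1 file a sample, made by the authors and not normalized. Per the submitters' processing notes, the tools included TopHat2, Picard 1.126, HTSeq 0.6.0, DESeq 3.0, bedtools 2.17.0 and CASAVA 1.8.4, with build mm10. The strandedness is not given in the sources used here. The 5 closing tallies that name no gene (41.0% to 51.0% of reads) were left out. Genes were filtered with filterByExpr (edgeR 4.0.16, R 4.3.3) and scaled by TMM, and the genotypes were compared with edgeR's quasi-likelihood test, with Benjamini-Hochberg adjustment over all genes and a threshold of 0.05. The SE is the absolute log2 estimate divided by the root of its F statistic. Log2 CPM used a prior count of 2. Alternatives were DESeq2 1.42.0 on all genes with counts, limma-voom (limma 3.58.1), other scalings and filters, and leaving out each sample. The litter in the labels pairs the samples and entered as an alternative term. Deviations from the genotype means correlated at -0.075 to 0.0034 within litters. Exon lengths and positions come from GENCODE release M21 (GRCm38, the same assembly as mm10), matched by symbol. Intervals cover the spread between these samples. The procedure was also run on simulated data. Only 1 of the settings had the common biological coefficient of variation of these data (0.817), and it used a change larger than any reader's estimate. The runs therefore do not tell whether changes of the readers' size would be found at that spread. Readers, lists and the rule for named genes (all readers, Dpy30, and the gene with the smallest p in each list where none passed) were chosen with earlier results of these data known.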

Additional observations from a re-analysis of the deposited data

How the results depend on the processing

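The count of readers past the threshold was 0 under every alternative run, with 0 to 2 readers at an unadjusted p under 0.05, and leaving out each sample in turn gave 0 to 0. With litter as a term in the fit (replicate block) it was 0 as well, as were edgeR's counts over all genes and over the related lists, so in edgeR pairing by litter changed no call. Over all genes the count was 275 with DESeq2, 395 with DESeq2 and the litter block, 138 with DESeq2 on the genes of the edgeR test (the last 2 were chosen after seeing the data), 1 without a filter on low counts, and 1 with at least 10 counts in every sample. In the related lists DESeq2 called 1 gene, and 0 with the litter block or on the genes of the edgeR test. Dpy30 passed with DESeq2 (log2 fold change -1.52) and with DESeq2 and the block (-1.60), but not with DESeq2 on the genes of the edgeR test (-1.53, adjusted p = 0.131). Signs turned for readers with estimates near 0. Phf8 was 0.046 with the block, 0.067 with DESeq2 and the block, 0.044 with limma-voom and 0.14 with scaling by library size only. Spin1 was 0.14 and Ing3 0.084 with library size only. Ing2 was -0.095 and Ing4 -0.018 with upper-quartile scaling, and Ing4 -0.052 with limma-voom. Library size only moved the median of all genes by 0.21 and upper-quartile scaling by -0.12, and relative to those shifts each of the 10 readers kept its sign. A change of scaling moves all genes by similar amounts, so the kept signs add no further support. Leaving out 1 sample at a time gave -0.20 to 0.46 for Ing2, -1.11 to 0.35 for Ing3, -0.31 to 0.54 for Ing4, -0.23 to 0.39 for Phf8, -0.0098 to 0.43 for Chd1 and -0.25 to 0.091 for Spin1. Bptf, Ing1, Taf3 and Ing5 kept their signs under every alternative run, with ranges of 0.11 to 0.42, 0.62 to 1.43, 0.48 to 1.17 and -1.06 to -0.33. The cause of these differences between settings was not tested. Ing3 in knockout 3 rests on 46 counts, the lowest of any reader.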

Other observations

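The ratio of Ing5 to Ing1 counts, chosen after the values of both genes were seen, was 5.88, 4.22 and 2.40 in the controls (litters 1 to 3) against 2.64, 1.18 and 0.858 in the knockouts. It was lower in the knockout of each litter, and it needs no scaling between libraries. The groups overlapped at knockout 1 and control 3, and the ratio was not tested.

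The summed level of the 10 readers depended on the scaling. With TMM it was 637, 635 and 637 CPM in the controls (litters 1 to 3) against 675, 829 and 714 CPM in the knockouts. With scaling by library size only it was 475, 668 and 647 CPM against 841, 820.1 and 720.2 CPM. Most of the sum comes from Bptf and Chd1, and Chd1 was highest in knockout 2, where the TMM-scaled sum was highest. The sum was looked at after its parts were known and is given with no test.

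The readers' own promoters had a higher median CpG count than the promoter windows of all genes. RefSeq (GRCm38.p6) start sites were matched for 9 of the 10 readers, with 16 windows in all, each of 300 bases around a start. CpG dinucleotides numbered 2 to 51 in these windows, with a median of 27, beside a median of 7 (quartiles 3 and 20) over 32841 windows of all genes. Those windows were not limited to genes expressed in these cells, and whether the readers differ from other expressed genes was not tested. Windows of the same gene can overlap, as do those of Ing1 that start at 11555813 and 11555815, so the 16 are not independent. The Spin1 windows held both extremes, 51 at 1 start site and 2 at another, and the counts here do not tell which start sites were used.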
